A study of Rattus norvegicus with 6 samples.

Results

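Macrophages and neutrophils are among the leukocytes that enter a torn tendon, and 7 marker genes of these cells were followed in the mRNA of injured rat tendons. The genes were given by Ensembl ID: Ptprc (ENSRNOG00000000655), Cd68 (ENSRNOG00000037563), Aif1 (ENSRNOG00000000853), Itgam (ENSRNOG00000019728), Lyz2 (ENSRNOG00000005825), S100a8 (ENSRNOG00000011557) and S100a9 (ENSRNOG00000011483). All 7 were among the 22250 IDs of the count table. The table holds IDs only, and the symbols were supplied with the list of members and could not be checked against a reference here. The samples were tendons from the injured site of Sprague–Dawley rats, collected 14 days after surgery in which the achilles tendon was severed and sewn together. All rats carried this injury, 3 of them untreated (injury model group) and 3 given celecoxib, an inhibitor of cyclooxygenase-2, together with lactoferrin, an iron-binding milk protein, by daily injection at the injured site (celecoxib + lactoferrin treatment group). The sample labels give 14 days as an age, whereas the study's methods give it as the time after surgery. By those methods the rats were already several weeks old before surgery, so 14 days was not their age. Uninjured tendon and celecoxib alone were not analysed here, so neither the level before injury nor the part of each agent can be read from these libraries. The study's methods name no injection for the injury model group, so the agents and the injections themselves cannot be told apart.

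After a tendon is cut, neutrophils arrive first and are short-lived, and macrophages follow, clear debris and persist through the repair phase. Ptprc encodes CD45, a phosphatase on the surface of all leukocytes. Cd68 encodes a glycoprotein of endosomes and lysosomes that is abundant in macrophages, and Aif1 encodes IBA1, a calcium-binding protein that bundles actin in macrophages. Itgam encodes CD11b, the alpha chain of an integrin that neutrophils and macrophages share, and Lyz2 encodes lysozyme, which cleaves bacterial cell walls and is made by both cells. S100a8 and S100a9 encode calcium-binding proteins that form a heterodimer, calprotectin, which fills the cytosol of neutrophils and is also found in monocytes. In bulk tissue, fewer cells of a type and less RNA per cell cannot be told apart.

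Promoter sequence from RefSeq (build GRCr8) was found for 5 of the 7 genes, namely Ptprc, Cd68, Itgam, Lyz2 and S100a9. The letters GAGGAA, the core bound by the myeloid transcription factor PU.1, were searched on both strands in the 250 bases before the start of each gene. All 5 windows held them, as did 23.3% of the 33469 windows of this length in the table. The motif was chosen after the windows had been read, so its count carries no test. The stretch around the match nearest to each start is shown because these genes are compared with each other throughout. Capitals mark the match, which reads TTCCTC where it lies on the other strand, and each stretch is written 5′ to 3′ on the strand of its gene.

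Ptprc, chr13:52259857-52259956, minus strand: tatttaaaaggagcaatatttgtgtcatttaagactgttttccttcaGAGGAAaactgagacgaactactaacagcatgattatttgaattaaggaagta
Cd68, chr10:54882442-54882515, minus strand: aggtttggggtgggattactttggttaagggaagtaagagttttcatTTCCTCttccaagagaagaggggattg
Itgam, chr1:192089506-192089591, plus strand: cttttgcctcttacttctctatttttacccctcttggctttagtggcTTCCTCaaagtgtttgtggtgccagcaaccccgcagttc
Lyz2, chr7:54798012-54798104, minus strand: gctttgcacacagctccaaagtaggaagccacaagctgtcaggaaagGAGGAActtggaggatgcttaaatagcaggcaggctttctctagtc
S100a9, chr2:178490779-178490872, minus strand: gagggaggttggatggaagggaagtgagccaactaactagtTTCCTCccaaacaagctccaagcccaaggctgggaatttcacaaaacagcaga

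The match lay 21 bases before the start in Cd68, 33 in Itgam, 40 in Lyz2, 157 in Ptprc and 203 in S100a9. In Itgam, 2 matches lay in the window, and in each of the other 4 genes there was 1. The longer form GAGGAAGT, which contains the core, was in none of the 5 windows and in 2.04% of all windows. The letters TTGCNNAA, a form of the C/EBP site, were in the windows of Itgam and Lyz2 and in 9.22% of all. Its palindromic form TTGCGCAA and the variant TTNCGNAA, which overlap it, were in none of the 5, against 0.14% and 2.13% of all. The AP-1 site TGACTCA was in that of Cd68 (4.05% of all) and the TATA box TATAAA in that of S100a9 (12.9% of all). A match of letters is a description of the sequence and no binding was measured.

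The 6 libraries held between 34546567 and 47181784 counts, and the 3 deeper ones were celecoxib + lactoferrin replicate 3 with the first and second injury model replicates. Levels are given as CPM, the counts scaled to a common library size after TMM normalization, a scale that corrects for library size and composition but not for gene length, so that levels are compared between libraries and not between genes. Of the 7 markers, 6 passed the filter on low counts together with 15122 of the 22250 IDs, and S100a8 did not. The genes that would mark tendon, muscle, blood, T cells, B cells and mast cells could not be paired with IDs, so the labelled tissue was not checked against its markers here. The same held for further macrophage and neutrophil genes, so the cell types read from the 7 markers were not checked either.

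Ptprc, the marker of all leukocytes, was at 73.9, 59.6 and 45.5 CPM in injury model replicates 1, 2 and 3. In celecoxib + lactoferrin replicates 1, 2 and 3 it was at 63.5, 23.2 and 84.4 CPM. The treated rats thus held the highest and the lowest level of all 6, a 3.63-fold range, and the groups overlapped. These values rest on 802 to 4256 counts, and the exact Poisson intervals at 95%, which cover counting error only, were 21.7 to 24.9 CPM for the lowest library and 81.9 to 87.0 CPM for the highest.

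Cd68 was at 64.7, 19.6 and 20.1 CPM in injury model replicates 1, 2 and 3, and at 44.6, 8.81 and 32.2 CPM in celecoxib + lactoferrin replicates 1, 2 and 3. Injury model replicate 1 was the highest and celecoxib + lactoferrin replicate 2 the lowest, 7.35-fold apart, with the other 4 libraries between. Aif1 was at 10.7, 11.2 and 5.84 CPM in the injury model group and at 7.36, 4.69 and 10.6 CPM in the treated group, in the same order of replicates. Its range of 2.38-fold was the narrowest of the 6 markers tested. In Aif1 alone among the markers, every one of the 3 deeper libraries, at 10.6 to 11.2 CPM, lay above every shallower one, at 4.69 to 7.36 CPM, and 7.76% of all genes tested were placed that way. The part of library depth in this placement was not tested, and the fit with a depth term given below covers the fold change alone.

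Of the genes that macrophages and neutrophils share, Itgam was at 56.3, 28.2 and 30.8 CPM in injury model replicates 1, 2 and 3. It was at 31.5, 11.6 and 58.6 CPM in celecoxib + lactoferrin replicates 1, 2 and 3. The 2 highest libraries, one of each group, stood at nearly the same level, and the lowest was again celecoxib + lactoferrin replicate 2, 5.05-fold below the highest. Lyz2 took the largest number of counts of the 7 genes, from 4423 to 46180. It was at 1080, 317 and 445 CPM in injury model replicates 1, 2 and 3, and at 586, 128 and 758 CPM in celecoxib + lactoferrin replicates 1, 2 and 3. The 2 groups interleaved, and the range over the 6 libraries was 8.42-fold.

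**Figure D1:**
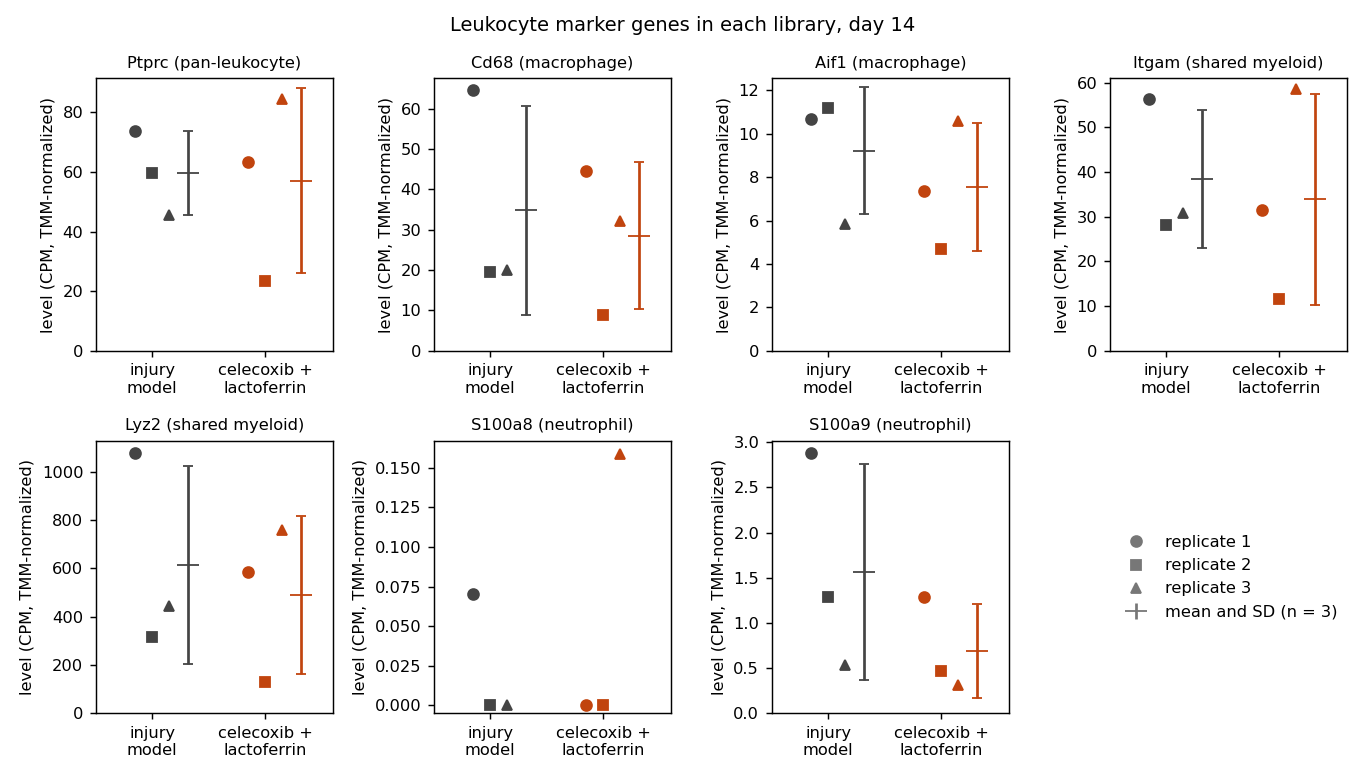
Level of each marker gene (vertical axis, CPM after TMM normalization, a separate linear scale per gene) in the 3 injury model and the 3 celecoxib + lactoferrin libraries; points are libraries, and the bars show mean and SD (n = 3), left out for S100a8, which had 0 counts in 4 libraries. Celecoxib + lactoferrin replicate 2 is the lowest library for Ptprc, Cd68, Aif1, Itgam and Lyz2, and the groups overlap for every gene.

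The neutrophil markers had the lowest counts of the markers. S100a9 stood above the floor of 3 counts in every library, and S100a8 was close to it. S100a9 had 123, 62 and 18 counts in injury model replicates 1, 2 and 3, or 2.88, 1.29 and 0.533 CPM. It had 44, 16 and 16 counts in celecoxib + lactoferrin replicates 1, 2 and 3, or 1.285, 0.464 and 0.317 CPM. Its highest library was injury model replicate 1, as for Cd68 and Lyz2, but its lowest was celecoxib + lactoferrin replicate 3, in which Ptprc and Itgam were at their highest. The exact Poisson interval was 2.39 to 3.43 CPM in the highest library and 0.181 to 0.516 CPM in the lowest, so this 9.06-fold range was wider than counting error.

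S100a8, whose protein partners that of S100a9, had 3 counts in injury model replicate 1, 8 counts in celecoxib + lactoferrin replicate 3 and 0 in the other 4 libraries. In those 4, S100a9 had between 16 and 62 counts. A count of 0 allows up to 3 counts, or between 0.0624 and 0.0889 CPM in these 4 libraries. The library with most S100a8 counts was thus the one with the lowest S100a9 level. Over the groups there were 3 counts in the injury model and 8 in the treated rats, a ratio of 2.79 with an exact 95% counting interval from 0.669 to 16.3. All counts of a group came from the same library. The interval covers counting error only and not the spread between rats, so it does not compare the groups. How reads that match several genes were treated is not given in the sources used here, and its part in the low counts of this ID was not tested. In the 2 fits that kept S100a8, DESeq2 and edgeR with no filter, it had no unadjusted p-value under 0.05.

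Ptprc, Cd68, Itgam and Lyz2 had similar orders of libraries, with Spearman's rho of at least 0.771 in each pair, and Aif1 and S100a9 had less similar ones. Likeness was measured as Pearson's r across the 6 libraries, on log2 CPM with 2 as prior count. For the 10 pairs among Ptprc, Cd68, Aif1, Itgam and Lyz2, r lay between 0.655 and 0.963, and Spearman's rho between 0.371 and 0.943. For the 5 pairs with S100a9, r lay between 0.286 and 0.623 and rho between -0.03 and 0.60. By order alone, Aif1 was no closer to Cd68 (rho = 0.371), Itgam (0.371) and Lyz2 (0.429) than to S100a9 (0.60). These are descriptions over 6 libraries of 2 groups and of unequal depth, with no test.

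The closest pair was Itgam and Lyz2, with r = 0.963 and rho = 0.943. Ranked by r among the other 15121 genes tested, Lyz2 came at place 52 in likeness to Itgam, and Itgam at place 47 in likeness to Lyz2. Lyz2 and Cd68 stood at r = 0.951, each at place 96 for the other, and Ptprc and Itgam at r = 0.949, with Itgam at place 121 for Ptprc. An r over 0.9, a looser cut than these values, was reached with Ptprc by 2.65% of all genes tested, and with Lyz2 by 2.31%. Itgam stood within the first 0.8% of the ranking for Ptprc and the first 0.311% of that for Lyz2. The genes ahead of the markers in these rankings have no symbol in the sources used here and are not named.

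Aif1 and Cd68, both macrophage markers, were less alike, with r = 0.655 and rho = 0.371, and Cd68 was at place 1856 in likeness to Aif1. Injury model replicate 2 had the highest Aif1 level of the 6 libraries and the second lowest of Cd68. For S100a9 the nearest marker was Cd68 by Pearson's r (0.623, at place 1326) and Aif1 by Spearman's rho (0.60, against 0.429 for Cd68).

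These values moved when 2 of the 6 libraries were left out. Without the 2 libraries farthest from the median of Cd68, injury model replicate 1 and celecoxib + lactoferrin replicate 2, r between Cd68 and Lyz2 was 0.747 and between Cd68 and Aif1 -0.03. Without the 2 farthest in Itgam, celecoxib + lactoferrin replicates 2 and 3, r between Itgam and Lyz2 was 0.935 and between Itgam and Ptprc 0.674. For S100a9 the values moved both ways. Without celecoxib + lactoferrin replicate 3 and injury model replicate 1, the farthest in S100a9 itself, its r with the other 5 markers was between 0.588 and 0.876. Without the 2 farthest in Cd68 or in Lyz2, which are injury model replicate 1 and celecoxib + lactoferrin replicate 2, its r was 0.067 with Cd68 and -0.61 with Lyz2.

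**Figure D2:**
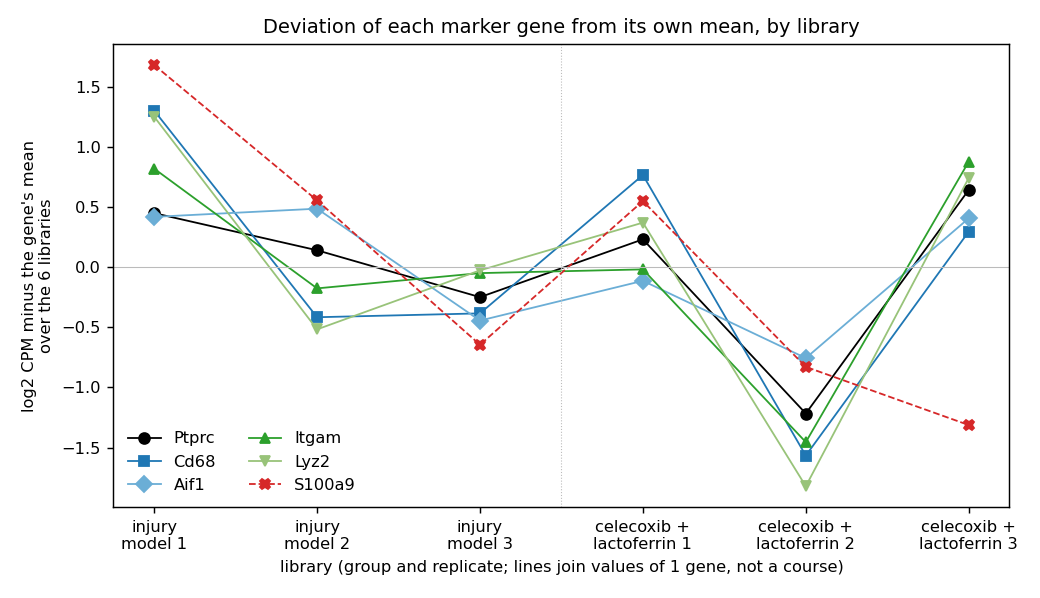
Difference of each tested marker gene from its own mean over the 6 libraries (vertical axis, log2 CPM with a prior count of 2) in each library (horizontal axis); a line joins the values of 1 gene only to guide the eye. In celecoxib + lactoferrin replicate 2 all 6 genes lie below their mean, from -0.76 for Aif1 to -1.82 for Lyz2, and in replicate 3 of that group S100a9 lies at -1.31 while the other 5 lie above 0.

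Each marker was next set against Ptprc, the marker of all leukocytes, in the same library, since gene length cancels when such ratios are compared between libraries. Per 100 Ptprc counts there were 76.2, 47.3 and 67.7 Itgam counts in injury model replicates 1, 2 and 3, and 49.5, 49.9 and 69.4 in celecoxib + lactoferrin replicates 1, 2 and 3. The range of this ratio was 1.61-fold, against 5.05-fold for the Itgam level. Aif1 gave 14.4, 18.7 and 12.8 counts per 100 of Ptprc in the injury model group and 11.6, 20.2 and 12.5 in the treated group, a 1.74-fold range. Celecoxib + lactoferrin replicate 2, the lowest library in the Aif1 level, was the highest in this ratio.

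Cd68 had a wider range of this ratio, with 87.6, 32.9 and 44.1 counts per 100 of Ptprc in injury model replicates 1, 2 and 3 and 70.2, 37.9 and 38.1 in celecoxib + lactoferrin replicates 1, 2 and 3. Replicate 1 of each group stood above the other 4 libraries, and the range was 2.66-fold. Lyz2 followed with a 2.75-fold range, highest in injury model replicate 1 and lowest in injury model replicate 2. Between Lyz2 and Cd68 themselves the ratio of counts ranged only 1.79-fold over the 6 libraries, although each gene's own level ranged over 7-fold. For S100a9 the spread did not narrow: it gave 3.89, 2.16 and 1.17 counts per 100 of Ptprc in the injury model group and 2.02, 1.995 and 0.376 in the treated group, a 10.4-fold range.

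The neutrophil markers were then set against the macrophage markers, as sums of unnormalized counts. S100a8 was at 0 in 4 libraries, so the sum above the line rested mostly on S100a9. In the sum below it there were between 176 and 607 Cd68 counts per 100 of Aif1. Gene length therefore does not fully cancel between libraries in this score. Per 100 counts of Cd68 and Aif1 there were 3.91, 4.19 and 2.06 counts of S100a8 and S100a9 in injury model replicates 1, 2 and 3. In celecoxib + lactoferrin replicates 1, 2 and 3 there were 2.47, 3.43 and 1.11. The groups overlapped, with the highest value in injury model replicate 2 and the lowest in celecoxib + lactoferrin replicate 3. On the log2 scale the ratio was -4.95 ± 0.565 (SD, n = 3) without treatment and -5.56 ± 0.835 (SD, n = 3) with it. The difference of -0.611 was smaller than the pooled SD of 0.713, and no p-value is given for a score over genes chosen with results known. With S100a9 alone above the line the difference was -0.795, and with Ptprc below it -0.717. Left out one at a time, celecoxib + lactoferrin replicate 3 moved it most, to -0.149, and replicate 2 of that group took it to -0.961 and injury model replicate 3 to -0.936.

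**Figure D3:**
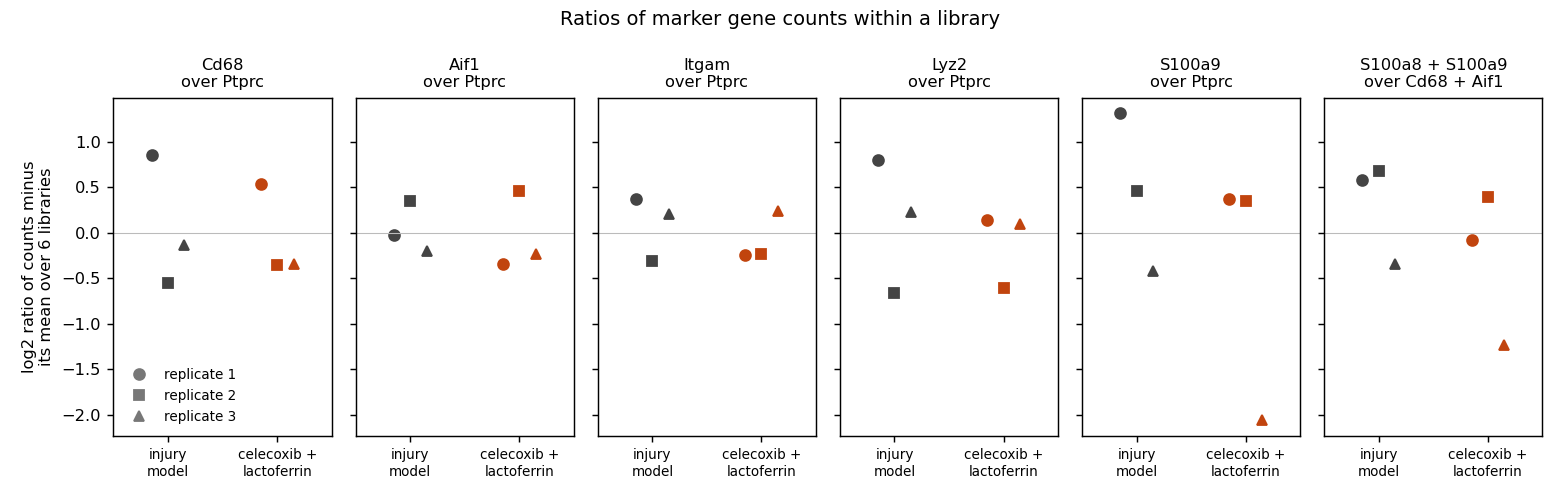
Log2 ratio of marker gene counts within each library, minus the mean of that ratio over the 6 libraries (vertical axis, the same scale in all panels), for the injury model and celecoxib + lactoferrin libraries; each point is a library. The points for Aif1 and Itgam over Ptprc lie closest together, with ranges of 1.74-fold and 1.61-fold, and S100a9 over Ptprc spreads widest, with celecoxib + lactoferrin replicate 3 lowest.

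Whether the leukocyte markers differed between the celecoxib + lactoferrin and injury model groups was tested with edgeR's quasi-likelihood test over all 15122 genes. None of the 6 markers tested passed: 0 had an unadjusted p-value under 0.05, the study's threshold, against 2.61% of all genes, and 0 had an adjusted p-value under 0.05, against 0.00661% (1 gene) of all. With DESeq2 and with limma's voom the counts were also 0 and 0. The groups overlapped in all 6. They did not overlap in 7.80% of all genes tested, so none among 6 genes is close to that share. All 6 fitted log2 fold changes were below 0, as were 49.0% of those of all genes, with a median of -0.29 against 0.01 for all genes. The values come from the same 6 rats and correlate between genes, so these 6 signs are not separate observations.

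S100a9 had the largest difference. Untreated injured rats had a mean of 1.57 ± 1.20 CPM (SD, n = 3), and treated rats 0.689 ± 0.522 CPM (SD, n = 3). The log2 fold change was -1.19 with a standard error of 0.77 (unadjusted p = 0.163, adjusted p = 0.998, edgeR). Its 95% interval ran from -2.99 to 0.60, that is from 0.126-fold to 1.51-fold. Without celecoxib + lactoferrin replicate 1 the log2 fold change was -2.01, with an unadjusted p of 0.0464 and an adjusted p of 0.999 in edgeR. Without injury model replicate 1 it was -0.42.

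The macrophage markers differed by less than their spread. Mean Cd68 was 34.8 ± 25.9 CPM (SD, n = 3) without treatment and 28.5 ± 18.2 CPM (SD, n = 3) with it, giving a log2 fold change of -0.29 and a 95% interval from -2.19 to 1.62 (adjusted p = 0.998, edgeR). Aif1 was at 9.22 ± 2.94 CPM (SD, n = 3) and 7.54 ± 2.95 CPM (SD, n = 3), with a log2 fold change of -0.29 and the narrowest interval of the 6, from -1.14 to 0.56. As folds, the intervals ran from 0.219 to 3.06 for Cd68 and from 0.454 to 1.48 for Aif1, and the groups overlapped in both.

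Mean Ptprc was 59.7 ± 14.2 CPM (SD, n = 3) without treatment and 57.1 ± 31.1 CPM (SD, n = 3) with it, a log2 fold change of -0.06 (95% interval -1.15 to 1.03). Itgam was at 38.4 ± 15.5 CPM (SD, n = 3) and 33.9 ± 23.6 CPM (SD, n = 3), with -0.18 (interval -1.65 to 1.29). Lyz2 was at 614 ± 408 CPM (SD, n = 3) and 491 ± 326 CPM (SD, n = 3), with -0.32 (interval -2.17 to 1.52). These 3 genes and Cd68 changed sign, to log2 fold changes between 0.13 and 0.31, when celecoxib + lactoferrin replicate 2 was left out, and to between 0.12 and 0.52 when injury model replicate 1 was left out. A p-value that misses the threshold does not show that the groups were alike, and the intervals of Ptprc, Cd68, Itgam and Lyz2 include 2-fold changes in either direction.

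The markers were among the more variable genes of these libraries. The pooled SD of log2 CPM within groups was 0.552 for Aif1, 0.734 for Ptprc, 0.916 for Itgam, 1.07 for S100a9, 1.12 for Cd68 and 1.17 for Lyz2. Their median was 0.993, against 0.324 over all genes tested. Only 7.40% of all genes had a larger SD than Lyz2, 8.09% a larger one than Cd68, and 23.6% a larger one than Aif1. From the lowest to the highest rat, the treated group ranged 3.63-fold in Ptprc, 5.06-fold in Cd68, 2.25-fold in Aif1, 5.05-fold in Itgam, 5.92-fold in Lyz2 and 4.05-fold in S100a9. The injury model group ranged 1.62-fold, 3.30-fold, 1.91-fold, 1.996-fold, 3.41-fold and 5.39-fold in the same order of genes, so that S100a9 alone ranged more widely there, and these differences in spread were not tested.

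**Figure D4:**
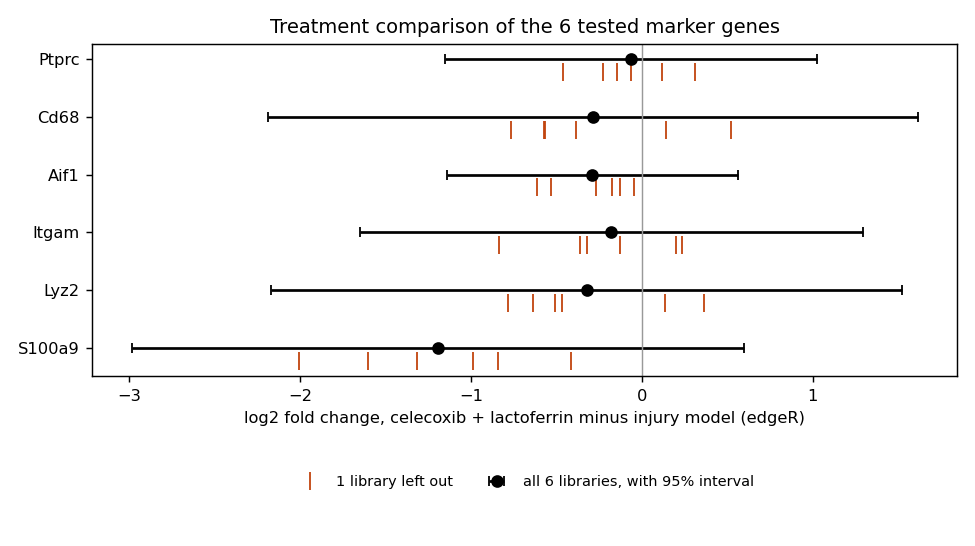
Log2 fold change (horizontal axis, celecoxib + lactoferrin minus injury model, edgeR) of the 6 tested marker genes with 95% intervals (black), and the same value with each of the 6 libraries left out in turn (short vertical lines). Every interval includes 0, and with 1 library left out the values of Ptprc, Cd68, Itgam and Lyz2 fall on both sides of 0, while those of Aif1 and S100a9 stay below it.

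The mean level in the 3 deeper libraries was above that in the 3 shallower ones for the 6 tested markers, and for 46.2% of all genes tested. The markers correlate across these libraries, so the 6 are not separate observations. Celecoxib + lactoferrin replicate 2, a shallower library, was the lowest of all in each tested marker but S100a9. For Ptprc the means were 72.7 CPM (range 59.6 to 84.4) and 44.1 CPM (range 23.2 to 63.5), and for Itgam 47.7 CPM (28.2 to 58.6) and 24.6 CPM (11.6 to 31.5). The ranges overlapped for all 6 but Aif1, and the lowest S100a9 library was a deeper one. With a term for this depth split in edgeR, the log2 fold change was 0.14 for Ptprc, 0.0092 for Cd68, -0.00053 for Aif1, -0.02 for Itgam, -0.10 for Lyz2 and -1.002 for S100a9, and again none passed. The labels name no batch, and depth and the state of single rats cannot be told apart in 6 libraries.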

How the data were processed

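Messenger RNA of 6 rat tendons was analysed, 3 per group by the sample labels, and the columns were matched to samples through the sample names in the study's heatmap. The authors removed reads of low quality, named HISAT2 and a rat Ensembl genome for alignment, and deposited a table of unnormalized counts, 1 row for each Ensembl ID. The submitters' processing notes name GRCh38.p13, a human build, whereas the IDs are those of rat. The counting tool, its strand setting and what it did with reads matching more than 1 gene are not given in the sources used here, so overlapping genes and near-identical copies are uncertain. Whether the libraries were prepared in batches is not given either.

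The main test was run on these counts with edgeR 4.0.16 under R 4.3.3 (TMM, filterByExpr by group, robust quasi-likelihood fit, Benjamini-Hochberg adjustment over 15122 genes). Intervals of log2 fold changes used the standard error implied by the F statistic and its degrees of freedom. The alternatives were DESeq2 1.42.0, voom of limma 3.58.1 with a quality weight per library, other normalizations, filters, a replicate block, a depth term and each library left out. The scripts were tested on simulated data. No libraries were duplicates (chi-square per degree of freedom of at least 86.9). Floors were 3 counts. The members and lists were chosen with earlier results of these data known. All 7 members are named, and likeness was ranked by Pearson's r over all tested genes. The lists of cell type markers fixed by symbol, further macrophage and neutrophil genes among them, were not analysed here, since 0 IDs could be paired with symbols. Promoter windows came from RefSeq, build GRCr8, matched by symbol, and no coordinates were converted.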

Additional observations from a re-analysis of the deposited data

How the results depend on the processing

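No marker gene had an adjusted p-value under 0.05 under any of the 14 alternatives, and leaving out each library in turn gave 0 to 1 markers whose unadjusted p-value was under 0.05 (S100a9 without celecoxib + lactoferrin replicate 1). Of 84 log2 fold changes recomputed for the 6 tested markers, 15 changed sign and 69 did not. Aif1 and S100a9 stayed below 0 in all 14, but Aif1 was at -0.00053 with the depth term and at -0.617 to -0.046 with each library left out. With limma's voom the value was 0.129 for Ptprc, 0.323 for Cd68, 0.016 for Itgam and 0.118 for Lyz2. With library size alone it was 0.016 for Ptprc. With the depth term it was 0.136 for Ptprc and 0.0092 for Cd68. With each library left out it ran from -0.462 to 0.308 for Ptprc, from -0.764 to 0.523 for Cd68, from -0.838 to 0.232 for Itgam and from -0.784 to 0.365 for Lyz2. The causes were not tested. The difference of the neutrophil to macrophage ratio stayed within 1 pooled SD of -0.611 in all alternatives that gave a value, running from -0.961 to -0.149 with each library left out. S100a8 alone over the macrophage markers gave none, since it was at 0 in 4 libraries. The labels do not say that replicate numbers pair the rats. Same-numbered deviations correlated at -0.267 to 0.0568, with 1 of 6 libraries most like its own number. With 3 rats a group this check cannot exclude a pairing. With a replicate block in edgeR, the log2 fold change of S100a9 was -1.131, and 326 genes rather than 395 had an unadjusted p-value under 0.05. The fits did not all test the same number of genes. With DESeq2 578 of 18064 had one, and with the depth term 223 of 15122. When celecoxib + lactoferrin replicate 3 was left out 890 of 15273 had one, and 226 of 15372 when injury model replicate 1 was. After adjustment 26 passed with DESeq2 and 3 with no filter on low counts, against 1 in the main edgeR fit. Without injury model replicate 2 there were 9, and without celecoxib + lactoferrin replicate 3 there were 6. Scaling by library size moved the higher calls from 213 of 395 to 285 of 401. S100a8 and S100a9 had the lowest counts of the markers, and their counting intervals were wide relative to their levels. With the depth term the log2 fold change of S100a9 was -1.002, against -1.194 without it, and S100a8 was not in that fit. The part of depth in their low counts was not tested.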
